A study of Mus musculus with 6 samples.

Results

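The EGF receptor family and its ligands were followed in renal cortex of mice with unilateral ischemia-reperfusion injury (UIRI), with and without bruceine A (BA). The members were the 6 ligand genes Egf, Hbegf, Areg, Ereg, Tgfa and Btc and the 4 receptor genes Egfr, Erbb2, Erbb3 and Erbb4. They were chosen by gene symbol with no rule on their values, though earlier results of these data were known. All 10 were found among the 19176 rows of the table of expression values. BA is a quassinoid, a bitter plant terpenoid, from Brucea javanica, and the deposited labels spell it Brucine A. Tissue came from 6 wild-type C57BL/6J mice that, according to the methods, were male and 8 weeks old. In every mouse the left renal pedicle was clamped, and the right kidney was removed the day before tissue was taken. The UIRI group of 3 mice received the vehicle, ethanol in saline, and the UIRI + BA group of 3 mice received BA at 1 mg/kg, both intraperitoneally each day until day 14. All 6 libraries come from injured kidneys, and sham kidneys were not analysed here.

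The EGF family ligands are made as membrane-anchored precursors, and cell-surface proteases release the soluble growth factors. They bind receptor tyrosine kinases, which pair and signal through adaptor proteins to the ERK and PI3K cascades. Egfr binds all 6 ligands studied here, Erbb4 binds Btc, Hbegf and Ereg as well as the neuregulins, Erbb3 binds neuregulins and has very weak kinase activity, and Erbb2 has no known ligand of its own and acts as a partner. Kidney is among the tissues richest in Egf mRNA, which is made by the thick ascending limb and the distal convoluted tubule, and Egf mRNA and urinary EGF are known to be low in injured kidneys. Hbegf, Areg and Tgfa are known as ligands induced in injured tubule cells.

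The libraries held 16510720 to 38124164 reads on genes. UIRI replicate 3 was the deepest, at 2.04 times the median of the other 5 libraries, and it also stood apart in its cell type markers. The mean log2 value of 12 proximal tubule markers was 10.53 and 10.60 in UIRI replicates 1 and 2, 11.28 in UIRI replicate 3, and 11.36 to 11.68 in the UIRI + BA libraries. Results that rest on UIRI replicate 3 are therefore given with and without it. All 12 were higher with BA, 11 of them with an unadjusted p below 0.05, and their sum was 61349 to 80806 with UIRI and 86049 to 141383 with UIRI + BA. All 8 fibroblast markers were lower with BA, 5 with such a p, and summed to 94001 to 112700 and 69505 to 91642. All 7 macrophage markers were lower, 1 with such a p, and summed to 83416 to 119127 and 79657 to 92281. The 11 injured tubule markers were mixed, with 6 higher and 5 lower. Of these, 3 were higher with such a p (Havcr1, Vcam1 and Krt20) and 3 were lower (Lcn2, Krt18 and Krt19). All 8 urothelium markers were lower, 0 with such a p and 2 at 0 in some library, and summed to 188 to 680 and 79 to 432. UIRI + BA replicate 3 also stood apart within its group. Its urothelium sum was 432, against 79 and 98 in UIRI + BA replicates 1 and 2. UIRI replicate 3 likewise had the highest urothelium sum of its group, 680 against 228 and 188 in UIRI replicates 1 and 2. All 8 collecting duct markers were higher, 0 with such a p. They summed to 4075 to 4509 with UIRI and to 5335, 5812 and 3655 in UIRI + BA replicates 1, 2 and 3. In cortex pieces of this kind, fewer cells of a type and less RNA per cell cannot be told apart, and the part of these markers in the results below was not tested. Each library comes from its own mouse, so the p-values measure the spread between mice.

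Across the family, 7 of the 10 genes were higher and 3 were lower in the UIRI + BA group, and 0 passed an adjusted p below 0.05. Of all genes, 48.9% were higher. Values are normalized counts, that is, read counts divided by a size factor of the library, and log2 fold changes are differences of group means of log2(normalized count + 1), UIRI + BA minus UIRI, from limma. By limma's unadjusted p below 0.05, 2 of the 10 differed, Egf and Erbb3, both higher with BA. Of all 19176 genes, 10.3% had such a p, 5.67% in the higher and 4.61% in the lower direction. The UIRI and UIRI + BA libraries did not overlap for 3 members, Egf, Erbb2 and Erbb3, again all higher with BA. Over all genes the libraries did not overlap for 14.4%, and for 7.45% with the UIRI + BA group higher. The median log2 fold change was 0.10 over the 10 members and -0.01 over all genes. The count of 0 members past the adjusted threshold stands beside 0 of all 19176 genes by limma, where 1971 had an unadjusted p below 0.05. edgeR's quasi-likelihood test gave 0 and 1703 of 17155 genes, and DESeq2 gave 213 (1.11%) and 1511, with no member among the 213. DESeq2 gave Areg and Ereg no adjusted p, so only the other members could be among the 213. Without UIRI replicate 3, 5 of the 10 members had an unadjusted p below 0.05, against 25.2% of all genes, and 2 had an adjusted p below 0.05, against 5.02%. All 5 were higher with BA, as were 13.7% of all genes at that p, and the 2 were Egf and Egfr.

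**Figure D1:**
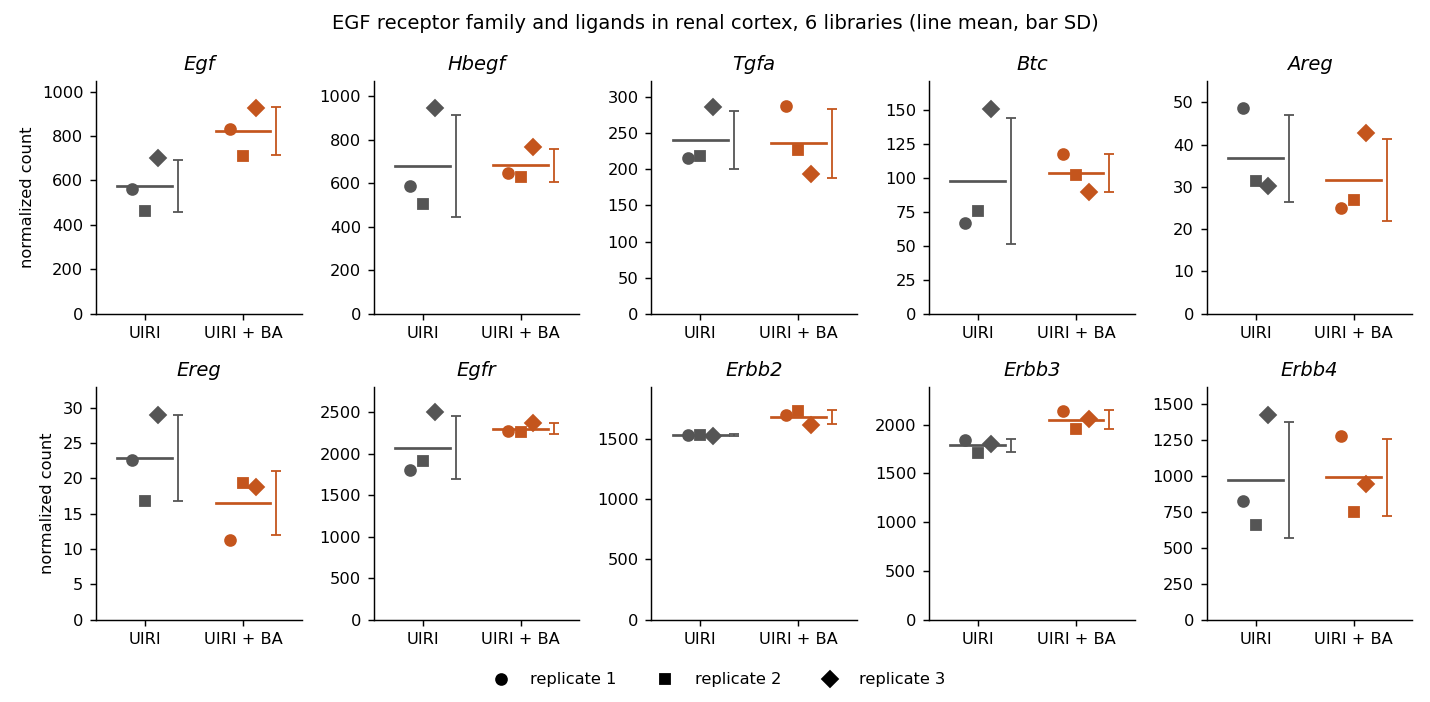
Normalized count of each of the 10 genes in each library, with the scale starting at 0 in every panel; symbols give the replicate number, lines the group mean and bars the SD of 3 libraries. Egf, Erbb2 and Erbb3 are the panels in which every UIRI + BA library lies above every UIRI library, and UIRI replicate 3 (diamonds) is the highest of 6 libraries for 5 genes.

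Egf was the member with the largest difference between the groups. The gene lies on the minus strand of chromosome 3, at chr3:129677565-129755316 in GENCODE release M21 (GRCm38), with 9 annotated transcripts. The 250 bases before its 5′-most start, with those of Areg and Erbb2 for comparison, are shown with CpG dinucleotides in capitals, since the windows at these 3 starts differ in them. The sequences are from RefSeq on GRCm38.p6, 5′ to 3′ on the strand of each gene, at chr3:129755323-129755572 (minus) for Egf, chr5:91139349-91139598 (plus) for Areg and chr11:98412234-98412469 (plus) for Erbb2. The Erbb2 window is 236 bases long, since 14 bases that fall in an exon were left out.
Egf: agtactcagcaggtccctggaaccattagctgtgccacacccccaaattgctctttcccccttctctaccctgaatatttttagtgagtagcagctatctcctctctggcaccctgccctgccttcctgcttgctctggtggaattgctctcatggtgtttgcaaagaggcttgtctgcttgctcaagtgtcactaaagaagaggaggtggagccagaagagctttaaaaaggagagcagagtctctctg
Areg: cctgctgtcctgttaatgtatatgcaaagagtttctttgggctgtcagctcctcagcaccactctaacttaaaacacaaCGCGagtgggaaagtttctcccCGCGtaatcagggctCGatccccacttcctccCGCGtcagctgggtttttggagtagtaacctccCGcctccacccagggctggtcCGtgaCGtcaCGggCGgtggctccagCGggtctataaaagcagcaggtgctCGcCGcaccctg
Erbb2: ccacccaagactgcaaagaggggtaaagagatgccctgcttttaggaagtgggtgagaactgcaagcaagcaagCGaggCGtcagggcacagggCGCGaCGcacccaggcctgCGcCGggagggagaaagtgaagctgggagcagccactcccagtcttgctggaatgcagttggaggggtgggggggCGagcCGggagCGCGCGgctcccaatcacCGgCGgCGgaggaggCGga

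The Egf window held 0 CpG dinucleotides, the Areg window 15 and the Erbb2 window 16. RefSeq gives a further Egf start inside the gene, whose 250-base window, not shown, held 15 CpG, as many as that of Areg, so the difference holds for the 5′-most start only. Over 32851 mouse promoters of the same 250-base length the median was 6 CpG, with quartiles of 2 and 16, and 7.866% had 0. A search of both strands for the letters TATAAA, TGACGTCA (the cyclic AMP response element), TGANTCA (the AP-1 site), CCAAT and GGGCGG found none in either Egf window. The windows of Erbb4 and Btc, not shown, also held none of them, with 12 and 4 CpG. Those of Tgfa and Egfr, not shown either, held GGGCGG or its complement at 2 and 1 places, with 19 and 11 CpG. No window is given here for Hbegf, Ereg or Erbb3. The Areg window held TATAAA, TGACGTCA and GGGCGG, which were present in 12.37%, 1.546% and 32.74% of all promoters. The Erbb2 window held CCAAT, as did 33.85% of all promoters, and TGANTCA, present in 6.749% of all promoters, was in none of the 3 windows. The Egf window overlaps an annotated exon of the gene 6330410L21Rik on the opposite strand, whose exons also overlap those of Egf over 500 bases. Those of Gm42697, on the same opposite strand, overlap them over 607 bases. Neither gene has a row of its own in the table, and whether the counting used strand is not given in the sources used here.

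Egf, the gene of the epidermal growth factor precursor, had normalized counts of 561, 465 and 700 in UIRI replicates 1, 2 and 3 and of 831, 711 and 925 in UIRI + BA replicates 1, 2 and 3. Every UIRI + BA library was above every UIRI library, with a narrow gap between UIRI replicate 3 and UIRI + BA replicate 2. The mean was 575 ± 119 with UIRI and 822 ± 107 with UIRI + BA (SD, n = 3), a ratio of 1.43. On the log2 scale the difference was 0.53 (SE 0.15, 95% interval 0.18 to 0.87), with an unadjusted p of 0.00756 and an adjusted p of 0.342 by limma. The exact two-sided permutation test gave 0.1, the smallest p that 3 against 3 allows. The values rest on 413 to 1279 reads per library, for which counting alone gives a coefficient of variation of 2.80% to 4.92%, against 20.6% among the UIRI and 13.03% among the UIRI + BA libraries. Without UIRI replicate 3 the log2 fold change was 0.68 with an adjusted p of 0.0239, and with each library left out in turn it ran from 0.38 to 0.68. UIRI replicate 3 had the highest Egf value of the UIRI libraries, so omitting it widens the difference. With any other library omitted, the adjusted p by limma was from 0.423 to 0.9995.

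Egf was also compared with other genes of the tubule segments in which it is made, to see whether it differed from them. The 7 thick limb markers, among them Umod (uromodulin) and Slc12a1 (the loop diuretic-sensitive cotransporter), had a summed level of 27745 to 44888 in the UIRI and 33609 to 47107 in the UIRI + BA libraries. Of the 7, 5 were higher and 2 lower with BA, 0 had an unadjusted p below 0.05, and the median log2 fold change was 0.09. The 5 distal convoluted tubule markers in the table, among them Slc12a3 (the thiazide-sensitive cotransporter), summed to 5765 to 7993 and 5924 to 10295, all 5 were higher, 0 had such a p, and the median was 0.15. The sums of both lists thus overlapped between the groups, while Egf itself did not.

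On the log2 scale, Egf minus the mean of these 12 markers was -1.26, -1.35 and -1.21 in the UIRI libraries and -0.90, -0.99 and -0.60 in the UIRI + BA libraries. The difference of 0.44 separated all libraries of the groups (exact two-sided permutation p = 0.1, the smallest possible). Against the 7 thick limb markers alone, the values were -1.79, -1.63 and -1.64 with UIRI and -1.12, -1.25 and -1.18 with UIRI + BA. These libraries did not overlap either, with a difference of 0.50 (exact permutation p = 0.1). Against the 5 distal convoluted tubule markers alone, the values were -0.51, -0.95 and -0.60 with UIRI and -0.59, -0.62 and 0.20 with UIRI + BA. Here the libraries overlapped and the difference of 0.35 was carried by UIRI + BA replicate 3 (exact permutation p = 0.5). That library also had the lowest sum of these markers in its group, 5924. When single libraries were omitted, the difference from all 12 markers ran from 0.33 to 0.52.

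**Figure D2:**
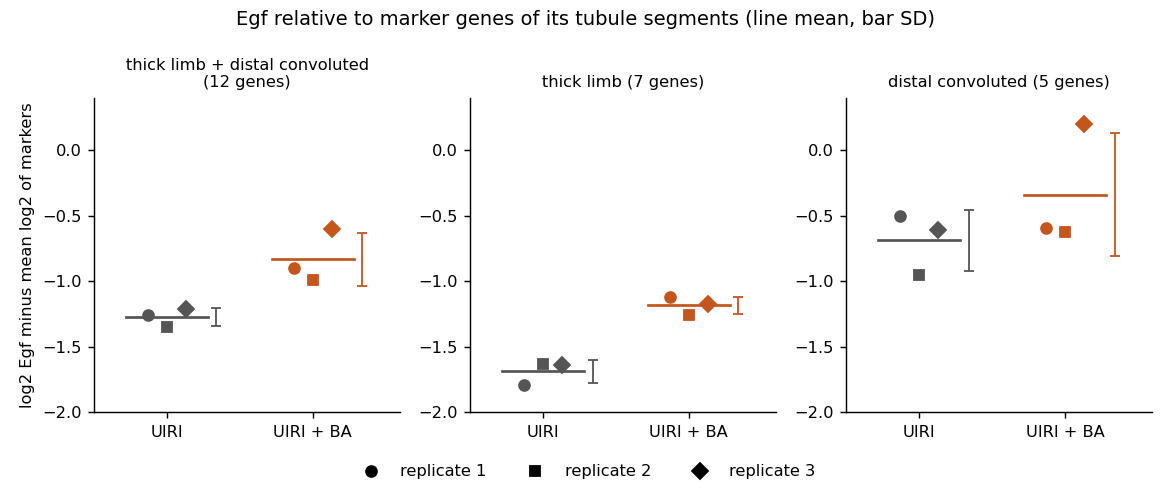
Log2 Egf minus the mean log2 of marker genes of the segments that make it, for thick limb and distal convoluted tubule together and for each alone; points are libraries, lines the means and bars the SD of 3 libraries. The groups are apart by 0.44 and 0.50 in the left and middle panels and overlap in the right panel.

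Hbegf, which encodes heparin-binding EGF-like growth factor, showed no such difference. Its normalized counts were 588, 503 and 947 in the UIRI libraries and 648, 629 and 768 in the UIRI + BA libraries. UIRI replicate 3 was the highest of all 6 and the other UIRI libraries were the lowest. The means were 679 ± 236 and 682 ± 75.5 (SD, n = 3), and the log2 fold change was 0.05 (SE 0.21, 95% interval -0.41 to 0.52, adjusted p = 0.938 by limma). Without UIRI replicate 3 it was 0.32 with an adjusted p of 0.126, and without UIRI replicate 2 it was -0.14, so the direction depends on the libraries used.

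Btc, which encodes betacellulin, a ligand of both Egfr and Erbb4, also had UIRI replicate 3 as its highest library. Its normalized counts were 66.8, 75.4 and 151 with UIRI and 118, 102 and 89.7 with UIRI + BA. All UIRI + BA libraries lay between UIRI replicate 2 and UIRI replicate 3. The log2 fold change was 0.17 (SE 0.28, 95% interval -0.47 to 0.81, adjusted p = 0.843 by limma), and 0.53 with an adjusted p of 0.124 without UIRI replicate 3. Tgfa, which encodes transforming growth factor alpha, was at 216, 218 and 287 with UIRI and at 288, 227 and 193 with UIRI + BA. The highest and the lowest library were both in the UIRI + BA group, and the log2 fold change was -0.03 (SE 0.17, 95% interval -0.42 to 0.36, adjusted p = 0.953 by limma).

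Areg and Ereg, which encode amphiregulin and epiregulin, were the ligands with the fewest reads, 20 to 55 for Areg and 9 to 53 for Ereg per library. Areg was at 48.7, 31.5 and 30.1 with UIRI and at 25.1, 26.9 and 42.8 with UIRI + BA. UIRI replicate 1 and UIRI + BA replicate 3 were above the other 4 libraries, which lay close together. The log2 fold change of Areg was -0.22 (SE 0.29, 95% interval -0.87 to 0.43, adjusted p = 0.793 by limma). Ereg was at 22.7, 16.9 and 29.0 with UIRI and at 11.3, 19.4 and 18.8 with UIRI + BA. The groups overlapped, and the log2 fold change was -0.45 (SE 0.32, 95% interval -1.17 to 0.27, adjusted p = 0.625 by limma). At these read numbers counting alone gives a coefficient of variation of up to 22.4% for Areg and 33.3% for Ereg, and the intervals include differences of either sign.

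**Figure D3:**
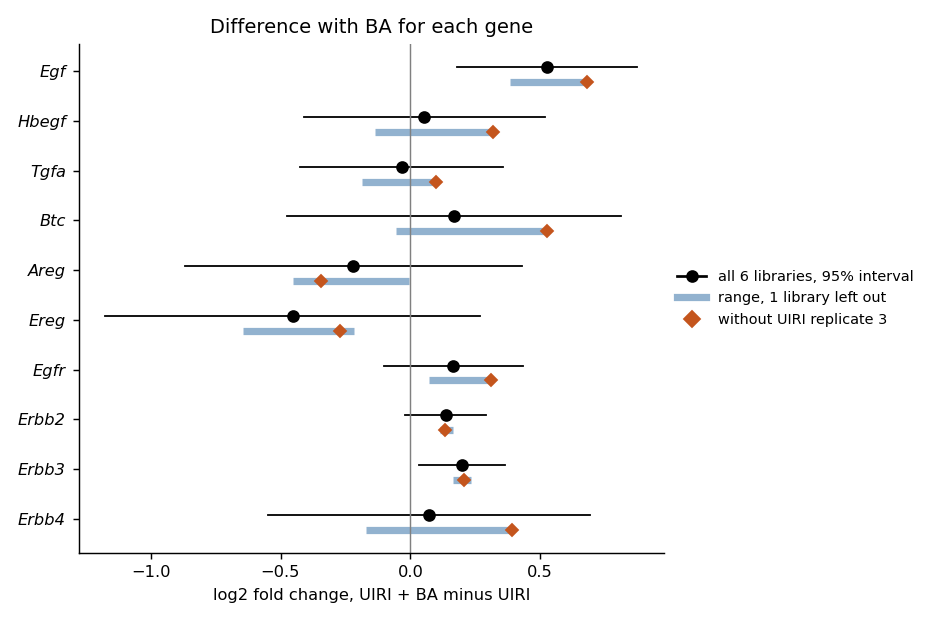
Log2 fold change of each gene, UIRI + BA minus UIRI, with its 95% interval (black), the range with 1 library left out at a time (blue) and the value without UIRI replicate 3 (orange). The interval lies above 0 for Egf (0.18 to 0.87) and Erbb3 (0.03 to 0.36), and leaving out UIRI replicate 3 moves Egf, Hbegf, Btc, Egfr and Erbb4, among others, upwards.

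Among the receptors, Erbb2 and Erbb3 were slightly higher with BA in every library, while Egfr and Erbb4 overlapped between the groups. Erbb3, at chr10:128567523-128589652 on the minus strand, was at 1847, 1712 and 1804 with UIRI and at 2143, 1955 and 2056 with UIRI + BA. Each UIRI + BA library was above all UIRI libraries. The mean was 1787 ± 68.9 with UIRI and 2051 ± 94.5 with UIRI + BA (SD, n = 3), a ratio of 1.15. This is a log2 fold change of 0.20 (SE 0.07, 95% interval 0.03 to 0.36), with an unadjusted p of 0.0245 and an adjusted p of 0.441 by limma. It ran from 0.17 to 0.23 with each library left out in turn, and without UIRI replicate 2, UIRI + BA replicate 1 or UIRI + BA replicate 3 the unadjusted p was no longer below 0.05, reaching 0.0940.

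Erbb2, at chr11:98412470-98437716 on the plus strand, was at 1528, 1533 and 1521 with UIRI and at 1691, 1732 and 1612 with UIRI + BA. The 3 UIRI libraries were nearly equal, with a coefficient of variation of 0.404% where counting alone gives 1.90% to 2.72%, so their spread understates the error of the group. The log2 fold change was 0.14 (SE 0.07, 95% interval -0.02 to 0.29, unadjusted p = 0.0832 and adjusted p = 0.534 by limma), and 0.13 without UIRI replicate 3.

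Egfr, the receptor shared by all 6 ligands, lies at chr11:16752203-16918158 on the plus strand. Its normalized counts were 1796, 1913 and 2503 with UIRI and 2266, 2255 and 2373 with UIRI + BA. The UIRI + BA libraries were close together, and UIRI replicates 1 and 2 were below and UIRI replicate 3 above all of them. The log2 fold change was 0.17 (SE 0.12, 95% interval -0.10 to 0.43, adjusted p = 0.629 by limma). Without UIRI replicate 3 it was 0.31 with an adjusted p of 0.0399, so whether Egfr passed the threshold rests on that library. Erbb4, a neuregulin receptor with an active kinase, was at 827, 656 and 1426 with UIRI and at 1278, 746 and 944 with UIRI + BA. It had the widest spread among the receptors, with coefficients of variation of 41.7% and 27.1% in the groups, and a log2 fold change of 0.07 (SE 0.27, 95% interval -0.55 to 0.69, adjusted p = 0.935 by limma). With each library left out in turn it ran from -0.17 to 0.39.

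Levels were compared between genes per kilobase of exon, using the union of all annotated exons. In the UIRI group Erbb3 and Erbb2 were at the top, at 297 ± 11.4 and 293 ± 1.19 normalized counts per kilobase (SD, n = 3), and their libraries overlapped. They were followed by Egfr at 183 ± 33.5, Hbegf at 141 ± 48.8, Erbb4 at 78.5 ± 32.7, Egf at 51.02 ± 10.5, Tgfa at 37.1 ± 6.20, Areg at 30.3 ± 8.53, Btc at 21.6 ± 10.2 and Ereg at 5.54 ± 1.47. Of the neighbours in this order, only Erbb2 and Egfr and, at the bottom, Btc and Ereg did not overlap. The order was the same in the UIRI + BA group. There Egfr (203 ± 5.74) and Hbegf (141 ± 15.6) were each also apart from the next. Erbb4 (80.1 ± 21.7) overlapped Egf (72.9 ± 9.50), which was apart from Tgfa (36.4 ± 7.42). With the length of the longest transcript in place of the exon union, 6 members changed rank in the UIRI group, as Erbb3 and Erbb2, Egfr and Hbegf, and Erbb4 and Egf traded places. In the UIRI + BA group 4 did, the last 4 of these. For Egf the exon union covers 11275 bases and the longest transcript 4761, and for Hbegf 4834 and 2890. Hbegf was the ligand with the highest level per kilobase by either length.

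Of the summed ligand level per kilobase, Egf made up 18.8%, 18.3% and 16.9% in the UIRI libraries and 24.4%, 22.7% and 24.8% in the UIRI + BA libraries. These shares did not overlap between the groups, nor did they with the longest transcript, where they ran from 24.2% to 27.3% and from 31.8% to 34.4%. The shares of Ereg were apart by either length too, in the lower direction. By exon union they were 2.07%, 1.81% and 1.91% with UIRI and 0.906%, 1.69% and 1.38% with UIRI + BA. The gap is narrow, and the normalized counts of Ereg themselves overlapped between the groups. They rest on 9 to 53 reads per library, where counting alone gives a coefficient of variation of up to 33.3%. Hbegf made up 45.9%, 46.1% and 53.3% with UIRI and 44.4%, 46.9% and 48.1% with UIRI + BA, which overlapped. With the longest transcript the Hbegf shares were narrowly apart, at 47.2% to 54.0% and 43.5% to 47.1%. The level of Egf relative to Hbegf, per kilobase of exon union, was 0.409, 0.396 and 0.317 with UIRI and 0.550, 0.485 and 0.516 with UIRI + BA, without overlap. The make-up of the receptors differed less between the groups. Erbb3 made up 35.0% ± 2.47 and 36.0% ± 0.531 of the summed receptor level (SD, n = 3), Erbb2 34.6% ± 2.77 and 34.1% ± 1.88, Egfr 21.4% ± 2.32 and 21.5% ± 1.04, and Erbb4 9.06% ± 3.02 and 8.42% ± 1.97 with UIRI and UIRI + BA.

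**Figure D4:**
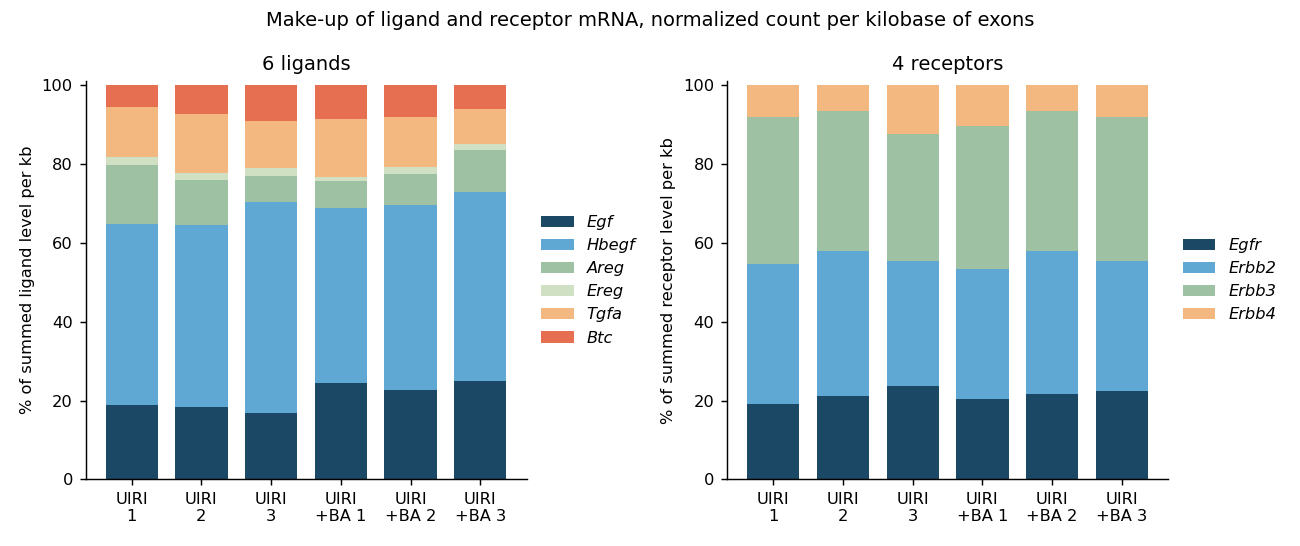
Share of each gene in the summed level of the 6 ligands (left) and of the 4 receptors (right), in percent of normalized counts per kilobase of exon union, 1 bar per library. Egf, at the base of the left bars, takes 16.9% to 18.8% in the UIRI and 22.7% to 24.8% in the UIRI + BA libraries, while Hbegf is the largest ligand share in each library.

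The members differed in which library was highest. UIRI replicate 3 held the highest value of 5 members, Hbegf, Ereg, Btc, Egfr and Erbb4, and UIRI replicate 2 the lowest of 4, Egf, Hbegf, Erbb3 and Erbb4. Over the 6 libraries, Btc and Egfr had a Pearson r of 0.88 on the log2 scale, Egf and Erbb3 0.87, Hbegf and Egfr 0.83 and Hbegf and Erbb4 0.80. The lowest r was -0.68, between Areg and Tgfa. These values describe 6 libraries that share their treatment groups and the depth of UIRI replicate 3, and were not tested.

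The genes whose pattern over the 6 libraries was most like that of Egf were Acad11 (r = 0.993), Herc3 (0.988), Enpp2 (0.988), Pank1 (0.986) and Osbpl10 (0.986). Acad11 encodes an acyl-CoA dehydrogenase, Enpp2 encodes autotaxin, and Pank1 encodes a pantothenate kinase of coenzyme A synthesis. They were the closest of 3915 genes with a mean of at least 100 and enough spread, of which 49 had an r above 0.95. Those most like Egfr were Man2a1 (r = 0.996), a mannosidase of glycan processing, Polr3e (0.995), Ppip5k2 (0.993), Atrn (0.991) and the mitochondrial transfer RNA gene mt-Tc (0.991), out of 9341 genes with 108 above 0.95.

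Other genes of ErbB signaling were read from the same fit. Of 51 listed genes, 49 were in the table, and 29 of them were higher and 20 lower in the UIRI + BA group (median difference 0.04 on the log2 scale). By the unadjusted p, 5 passed (3 higher, 2 lower), which is 10.2% of the 49 against 10.3% of all genes, and 0 passed the adjusted threshold. Of the other ligands Nrg1, Nrg2 and Nrg4, 0 of 3 passed, with Nrg1 (neuregulin, a ligand of Erbb3 and Erbb4) having the smallest p, at 494, 553 and 757 with UIRI and 566, 732 and 703 with UIRI + BA (log2 fold change 0.16, unadjusted p = 0.338 by limma).

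Of the 7 genes of ligand shedding, Timp3, an inhibitor of the shedding protease Adam17, was the one that passed. Its normalized counts were 2364, 2517 and 3578 with UIRI and 4660, 3299 and 4072 with UIRI + BA (log2 fold change 0.52, SE 0.17, unadjusted p = 0.0133, adjusted p = 0.385 by limma). The groups overlapped through UIRI replicate 3. Of the 16 inhibitors of the receptors or of ERK, Spry1, a feedback inhibitor of receptor tyrosine kinases, passed and was lower, at 1344, 1271 and 1461 with UIRI and 1074, 1228 and 1148 with UIRI + BA, without overlap (log2 fold change -0.24, SE 0.09, unadjusted p = 0.0214, adjusted p = 0.431 by limma).

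Of the 14 adaptors and kinases of the ERK cascade, Grb7, an adaptor that binds Erbb2, passed and was higher. It was at 1233, 1126 and 1250 with UIRI and 1443, 1300 and 1433 with UIRI + BA, without overlap (log2 fold change 0.21, SE 0.08, unadjusted p = 0.0291, adjusted p = 0.448 by limma). Grb7 lies near Erbb2 on chromosome 11, at chr11:98446394-98455373. Of the 9 genes known as ERK targets, 2 passed, in opposite directions. Myc was higher, at 658, 678 and 775 with UIRI and 1050, 844 and 930 with UIRI + BA, without overlap (log2 fold change 0.42, SE 0.11, unadjusted p = 0.00334, adjusted p = 0.291 by limma). Phlda1 was lower, at 377, 336 and 290 with UIRI and 272, 291 and 256 with UIRI + BA, where UIRI replicate 3 overlapped the UIRI + BA libraries (log2 fold change -0.29, SE 0.12, unadjusted p = 0.0436, adjusted p = 0.481 by limma).

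Without UIRI replicate 3, 18 of these 49 genes passed by the unadjusted p, against 25.2% of all genes, and 14 of them were higher, against 13.7%. An adjusted p below 0.05 was found for 5 of the 49, against 5.02% of all genes. These 5 were Errfi1, an inhibitor that binds Egfr (log2 fold change 0.78), Timp3 (0.70), Myc (0.49), Ccnd1 (0.48), which encodes cyclin D1, and Dusp6 (0.37), an ERK phosphatase, all higher with BA. With all 6 libraries the log2 fold changes of Errfi1, Ccnd1 and Dusp6 were 0.43, 0.27 and 0.17, with unadjusted p-values of 0.122, 0.120 and 0.291 by limma. With other libraries left out, the count by the unadjusted p was 2 without UIRI replicate 1, 3 without UIRI replicate 2, 1 without UIRI + BA replicate 1, 6 without UIRI + BA replicate 2 and 2 without UIRI + BA replicate 3. Myc stayed below 0.05 in each case (p of up to 0.0161), while Timp3, Spry1, Grb7 and Phlda1 reached 0.0607, 0.0774, 0.117 and 0.179. Each of Errfi1, Ccnd1 and Dusp6 had its highest value in UIRI replicate 3, as Egfr did.

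**Figure D5:**
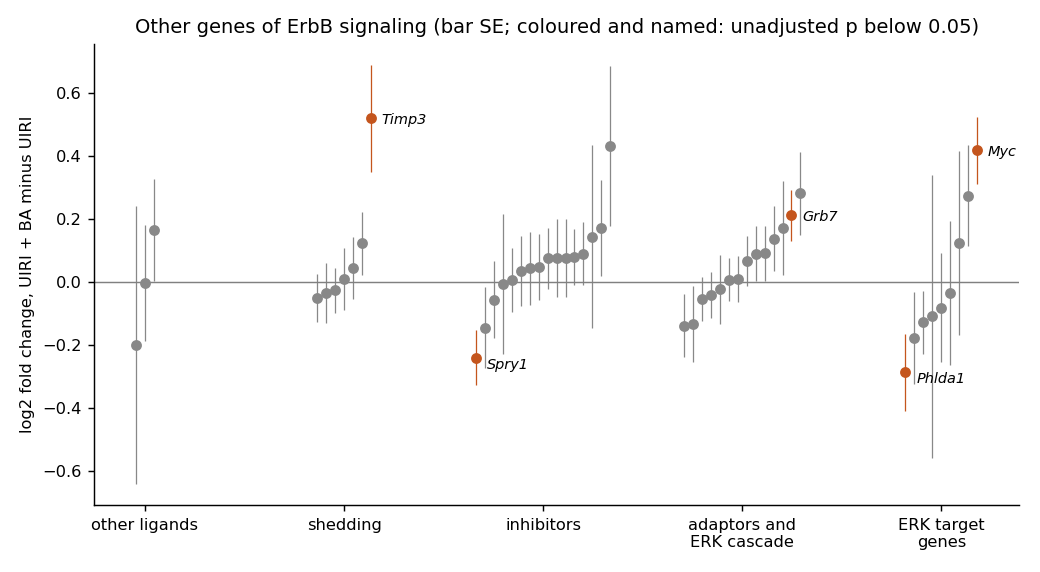
Log2 fold change, UIRI + BA minus UIRI, of the 49 other genes of ErbB signaling in 5 lists, sorted within each list; bars give the SE. The 5 genes with an unadjusted p below 0.05 are coloured and named with 3 above and 2 below 0.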

How the data were processed

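Renal cortex of 3 UIRI and 3 UIRI + BA mice was analysed, with groups read from the labels. According to the methods, the authors used HISAT2 for alignment, FeatureCounts for gene counts and DESeq2 for testing. The genome build and annotation are not given in the sources used here. The labels name a column kit for the RNA, and the methods name TRIzol. The deposited table gives each gene a normalized signal per library (a read count over the library's size factor), although the methods name FPKM. Of its values, 100% gave whole reads within a tolerance of 0.01 of a read, which was widened in proportion to the count for genes with very many reads. The authors' log2 fold changes and p-values in the deposited table, and their deposited tables of term enrichment, hold the study's own comparisons and were not used. The number of other columns of values per library left unused was 0.

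Values were analysed as log2(value + 1) with limma 3.58.1 (R 4.3.3), using a variance trend on intensity, all 19176 rows, no covariate and Benjamini-Hochberg adjustment at 0.05. Single values were tested by exact permutation of the libraries (two-sided, p of at least 0.1). The alternatives were a pseudocount of 0.1, dropping genes below 1 in any library, upper quartile scaling, quantile normalization, a replicate block, DESeq2 1.42.0 and edgeR 4.0.16 on the recovered reads, and each library left out in turn. On simulated data, limma recovered 74.7% of 91 genes changed 2-fold and 100% of 109 genes changed 4-fold among 19176, with 1 false call. It made 0 calls with no gene changed. DESeq2 made 11 false calls with genes changed and 2 with none changed. The simulation gave every gene the same spread between mice and set no library apart except in depth. It changed only genes above a minimum mean. Its smallest change, 2-fold, was larger than the ratio of 1.43 for Egf, so these rates do not cover differences of the members' size.

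The members, marker lists and signaling lists were chosen with earlier results of these data known. All members were named, and of the signaling list each gene with an unadjusted p below 0.05, or else the gene with the smallest p of its list. The 5 genes most like Egf and Egfr were those with the highest r among genes with a mean of at least 100 and an SD of log2 at least 0.5 times that of Egf or Egfr. Marker genes and the genes that passed without UIRI replicate 3 were named beyond this rule, after their values were seen. Gene positions and exon lengths come from GENCODE release M21 by symbol (98.19% of symbols found), and promoters from RefSeq. Counting error covers the reads only.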

Additional observations from a re-analysis of the deposited data

How the results depend on the processing

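Of the 10 members, 6 (Egf, Areg, Ereg, Egfr, Erbb2 and Erbb3) kept the direction of their difference in all 13 alternatives. Dropping genes below 1 and the replicate block leave each log2 fold change unchanged, so these alternatives could not reverse a direction. Areg came close to 0 (-0.0045) without UIRI replicate 1. The number of members with an unadjusted p below 0.05 was 2, and 1 to 5 with each library left out in turn, 1 without UIRI replicate 2, UIRI + BA replicate 1 or UIRI + BA replicate 3, and 5 without UIRI replicate 3. With an adjusted p it was 0, and 0 to 2 with a library left out. Over all genes the adjusted count was 0 by limma, 213 by DESeq2, 6 with the replicate block and 0 to 962 with a library left out, and the unadjusted count was lowest at 808, leaving out UIRI replicate 1, and highest at 4838, leaving out UIRI replicate 3. In the list of other ErbB signaling genes the unadjusted count ran from 1 to 18 and the adjusted count from 0 to 5. The log2 fold change turned sign for Hbegf by DESeq2 (-0.0005) and edgeR (-0.0078), and with a library left out it ran from -0.14 to 0.32 for Hbegf, -0.054 to 0.53 for Btc, -0.17 to 0.39 for Erbb4 and -0.19 to 0.10 for Tgfa. Per kilobase of the longest transcript, 6 members changed rank in the UIRI group and 4 in the UIRI + BA group. The causes were not tested.

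Libraries with the same replicate number had correlations of their deviations of -0.240, 0.304 and 0.155, so the numbers were not taken to pair the mice, and not every library was closest to its own number. With the replicate block, 2 members had an unadjusted p below 0.05, Egf had a log2 fold change of 0.53, and Egf relative to the segment markers differed by 0.44 (exact paired permutation p = 0.25, the smallest possible). Both differences are the same as without the block by design, since it changes only their error. The adjusted p of Egf by limma was 0.0893 with the block and 0.342 without it. The 3 mice in each group limit the precision of all values, and the 9 to 55 reads of Areg and Ereg add counting error.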
